A study of Mus musculus with 36 samples.

Results

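Of the 36 arrays of the series, 6 carry RNA of CD8 T cells transduced with a short hairpin RNA (shRNA) against Arhgap5: 3 are labelled tumor and 3 are labelled spleen. They were chosen by their labels alone. All 18193 genes were then compared between the labels. In every group the cells came from OT-I mice, whose T cells recognise an ovalbumin peptide. After transduction they were transferred into mice bearing B16, a mouse melanoma cell line, and later purified from tumor or spleen. The other 30 arrays hold, with 3 arrays for each label, cells with a hairpin against LacZ (a bacterial gene, the control), Ppp2r2d, Egr2, Ptpn2 or Alk. Strain, age, sex, time of recovery and the number of pooled mice are not given in the labels, and nothing says that the 3 arrays of a group came from separate animals. Each p-value therefore measures the spread between arrays. The series asks which genes govern the presence of T cells in tumors relative to spleens.

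Arhgap5 encodes p190-B, a GTPase-activating protein. A CD8 T cell that has met its antigen proliferates, makes granzymes and cytokines and, on lasting stimulation, inhibitory receptors such as PD-1, whereas a resting cell expresses receptors for recirculation.

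Values are the deposited log2 signals, so a difference of 1 is a 2-fold change. Differences are labelled tumor minus labelled spleen, given ± their standard error with n = 3 arrays a group. The Arhgap5 arrays were of a kind with the rest: each correlated with its nearest other array at 0.985 to 0.992, and their medians lay between -0.46 and -0.33. The lowest signal on an array was -4.31 to -4.10 under the spleen label and -3.87 to -2.78 under the tumor label. The Gapdh 3' minus 5' probe difference, a sign of RNA quality, was 0.50 to 0.51 in the former and 0.87 to 1.12 in the latter. RNA quality thus moved with the label, and its part in the results was not tested. Elsewhere, Ptpn2 array 1 labelled tumor stood apart, with a best correlation of 0.892 and a Gapdh difference of 2.94.

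Marker genes ran against the tissue labels. Dct, an enzyme of melanin synthesis, read -2.37, -1.65 and -2.05 in the 3 arrays labelled tumor and 4.77, 4.94 and 4.62 in the 3 labelled spleen. It was thus high on the arrays labelled spleen and near the bottom of the range on those labelled tumor. Of 15 melanocyte markers measured, 0 were called higher and 12 lower under the tumor label. The mean over these 15 genes was -1.36 to -1.22 in the arrays labelled tumor and 2.25 to 2.48 in those labelled spleen. Macrophage markers ran the same way, with 19 of 20 lower. The same held for Dct in the other transductions, at 4.29 to 5.87 in the 12 spleen-labelled arrays of the 4 other hairpins. Every direction below rests on the labels as deposited.

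The targeted gene was read first. On the probe set with the highest mean, Arhgap5 read 1.44, 1.25 and 0.44 under the tumor label and 0.66, -0.26 and -0.33 under the spleen label. The groups overlap, since the lowest array labelled tumor lies below the highest labelled spleen. The difference was 1.02 ± 0.35 (limma, Benjamini-Hochberg adjusted p = 0.0222), and the 5 other transductions gave 0.15 to 2.80. Leaving out spleen array 2 or 3, or tumor array 1 or 2, gave 0.88, 0.85, 0.82 or 0.92 with adjusted p of 0.0835 to 0.113. The other probe sets of the gene gave 0.43, 0.80 and 0.81, with adjusted p of 0.498, 0.182 and 0.033. The levels overlapped those of the other hairpins: under the tumor label, the 12 arrays of those hairpins read 0.45 to 2.26, and under the spleen label -1.28 to 0.87. Of the other targets, Egr2, a zinc finger factor induced by the T cell receptor, read 2.50, 3.52 and 2.80 against 4.41, 4.90 and 4.55, a difference of -1.68 ± 0.55 (adjusted p = 0.0174). That call was lost after quantile normalization, with -1.19, after subtracting array medians, with -1.37, and without spleen array 2 (-1.54), tumor array 1 (-1.46) or tumor array 3 (-1.61). The other Egr2 probe set read 1.83, 2.81 and 2.11 against 3.96, 4.57 and 4.02. Its difference was -1.94 ± 0.34 (limma, adjusted p = 3.6e-05 across probe sets). Alk differed by 1.91 ± 0.48 at the low end of the range, with -1.26, -0.89 and -0.56 against -3.29, -2.75 and -2.39. Ppp2r2d and Ptpn2 differed by -0.35 ± 0.42 and 0.18 ± 0.28, with adjusted p of 0.546 and 0.651.

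Across all genes, 1945 (10.7% of 18193) were called higher and 3933 (21.6%) lower in the arrays labelled tumor at an adjusted p under 0.05. The falls were also the larger changes: 264 called genes fell by more than 4 log2 units and 18 rose by as much. The ranges of the 3 and 3 arrays did not overlap for 5204 genes that lay higher (28.6% of all genes) and 6082 that lay lower (33.4%). These shares exceed the 10.7% and 21.6% called, so lack of overlap is the looser condition here. The split depends on the scaling. Quantile normalization gave 3633 higher and 3463 lower, cyclic loess 3467 and 3892, and subtracting array medians 3407 and 2727. The median over all genes was 0.03 as deposited and 0.34 after subtracting array medians, a shift that each gene then carries. Because these are bulk samples, fewer cells of a type and less RNA per cell cannot be told apart.

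The 12 largest falls among genes whose arrays do not overlap between the labels, a condition of their choice, were those of 5 granzyme and serpin genes and 7 others. Gzmc, a granzyme of strongly stimulated killer cells, read -1.76, -1.59 and -2.05 under the tumor label. Under the spleen label it read 7.09, 7.30 and 7.29, so that no array of one label came near the other. The difference was -9.03 ± 0.32 (adjusted p = 2.6e-19). The neighbouring granzymes followed, with -8.75 ± 0.40 for Gzmf, -8.29 ± 0.50 for Gzme and -7.99 ± 0.52 for Gzmd, and Serpinb9b, a serpin related to the granzyme B inhibitor Serpinb9, with -8.45 ± 0.39. The granzyme genes are close relatives, so their values are not fully separate measurements. Ccl1, a chemokine, read -2.93, -2.24 and -2.29 against 5.49, 5.69 and 5.86. Pdcd1, the gene of PD-1, read -1.76, -1.70 and -0.74 against 6.28, 6.42 and 6.32, a difference of -7.74 ± 0.30. In the other 5 transductions the Pdcd1 difference was -7.94 to -7.08. Nrgn, which encodes the calmodulin-binding protein neurogranin, fell by 7.58. The rest of the 12 are also known from other cells: C1qb of complement (-7.92), the lysozyme Lyz1 (-7.94), and Mlana and Tyrp1 of melanocytes (-7.84 and -7.49).

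The 12 largest rises, chosen under the same condition, were smaller. Klf3, a zinc finger repressor of the Kruppel-like family, read 5.13, 5.25 and 4.80 under the tumor label. Under the spleen label it read -0.38, -1.12 and 0.09, a difference of 5.53 ± 0.33 (adjusted p = 2.08e-14). S1pr1, the sphingosine phosphate receptor that lets lymphocytes leave lymphoid organs, read 3.90, 3.50 and 3.12 against -1.52, -2.55 and -1.53. Its difference of 5.37 ± 0.49 compares with 2.04 to 4.55 in the 5 other transductions. Whether the S1pr1 difference exceeds that of the other hairpins was tested, and it did not pass (interaction 1.73 ± 0.54, adjusted p = 0.31). Dtx1, a regulator of Notch signalling, rose by 5.33 and Pde2a, a cyclic nucleotide phosphodiesterase, by 5.19. Pde2a read 6.02, 6.05 and 5.67 against 0.71, 0.78 and 0.70, the tightest group of spleen arrays among the 12. Aqp9, a channel for water and glycerol, rose by 5.36. The remaining 7, Tmem86b, Tdrp, Cacna2d4, Csn1s2a, Dmrta1, Tmem108 and Rtn4rl1, rose by 4.26 to 5.52. Among these, Csn1s2a has the widest error, 4.37 ± 0.87. All 12 kept their call under the 17 other settings tried, but some sizes moved with the setting. The smallest rise was 1.39 for Csn1s2a, 2.10 for Tmem108, 2.27 for Tmem86b and 2.93 for Dtx1. For the rest of the 12 it was 3.23 (Cacna2d4) or more.

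**Figure D1:**
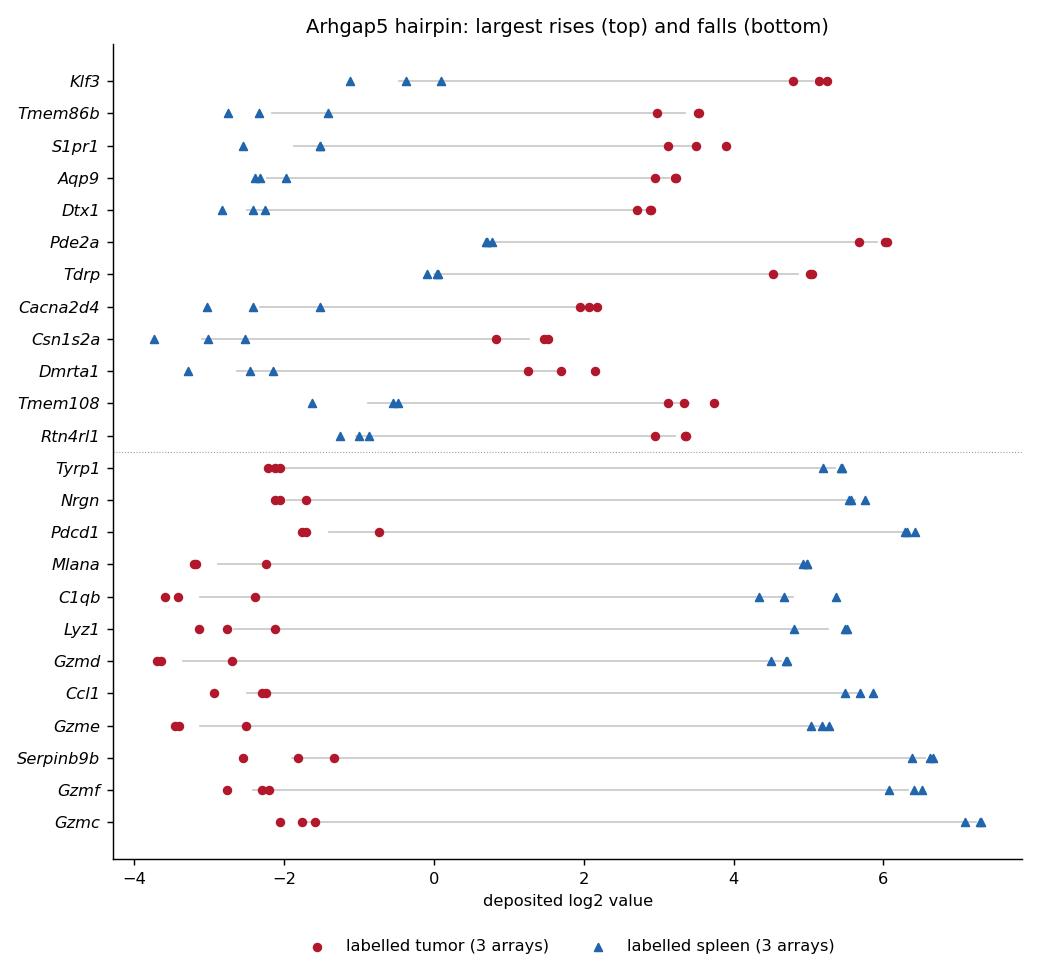
Deposited log2 value (x axis) of the 12 genes with the largest rise, above the dotted line, and the 12 with the largest fall, below it, in the 6 Arhgap5 hairpin arrays. Red circles are the 3 arrays labelled tumor, blue triangles the 3 labelled spleen, and a grey line joins the group means. Genes were chosen among those whose groups do not overlap, and the differences run from Klf3 (difference 5.53) to Gzmc (-9.03).

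As deposited, list counts here and below are to be read against the 10.7% of all genes called higher and 21.6% lower. Of 13 genes that identify T cells, limma called 0 as deposited, and 0 had an unadjusted p under 0.05. Cd3e differed by -0.12 ± 0.45, Cd8a by -0.11 ± 0.24, Cd8b1 by 0.42 ± 0.27 and Cd2 by 0.75 ± 0.52. The mean over the 13 genes was 5.75 to 5.98 under the tumor label and 5.63 to 5.83 under the spleen label, ranges that overlap. Quantile normalization called 5 of them higher and 1 lower, loess 5 and 0, and median scaling 1 and 0.

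The naive and memory list moved the other way from the large falls: 11 of 22 rose and 1 fell, with a median of 0.74. Beside S1pr1 and Klf3, Rasgrp2, an activator of the small GTPase Rap1, read 4.25, 4.23 and 4.14 against 0.12, 0.34 and 0.19. Il6ra, the interleukin-6 receptor, rose by 3.71 ± 0.33, from 1.15, 0.82 and 0.72 to 4.82, 4.63 and 4.37. Eomes and Klf2, transcription factors of memory and resting T cells, rose by 2.54 and 2.22, and Il7r, a receptor for survival signals, by 1.52. Ccr7, the lymph node homing receptor, was not called (0.06 ± 0.31). The homing and residency list had 9 rises and 6 falls among 23 measured. Beside 10.7% of all genes higher and 21.6% lower, its falls lie near the general share. Gpr183, a receptor for oxysterols, read 5.70, 5.74 and 5.57 against 3.32, 3.38 and 3.28, and Ccr9, a gut homing receptor, rose by 2.43 ± 0.38. Itgae and Itgb7, which pair as the integrin that binds E-cadherin, rose by 2.23 and 2.25. Cxcr6, a receptor of tissue T cells, read 1.37, 1.23 and 0.81 against 3.55, 4.22 and 4.01, a fall of 2.79 ± 0.42.

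Inhibitory receptors and exhaustion genes fell in 14 of 18 cases and rose in 0, with a median of -2.63. Havcr2 (TIM-3) read -1.10, -1.45 and -1.97 under the tumor label and 4.77, 5.31 and 5.15 under the spleen label. Lag3 read -1.10, -1.09 and -0.69 against 5.12, 5.30 and 5.31, and Rgs16, a brake on G protein signalling, -1.26, -0.83 and -1.05 against 5.44, 5.62 and 5.73. Tox, a factor of exhausted T cells, fell by 2.16 and Ctla4 by 0.88. Btla (0.13 ± 0.33) and the receptor-induced Nr4a1 (0.61 ± 0.31) were not called.

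Of 25 cytotoxic genes 17 fell and 1 rose, beside 21.6% of all genes lower and 10.7% higher. Beyond the granzymes above, Gzmb fell by 3.89 and the pore former Prf1 by 3.37, while Gzma (-0.42 ± 0.39) and Nkg7 (-0.08 ± 0.27) were not called. Gzmm rose by 0.83, a call lost without any 1 of spleen arrays 1 and 3 and tumor arrays 1, 2 and 3. Of 19 cytokines and chemokines 14 fell and 2 rose. Csf2, the gene of GM-CSF, read 0.12, 1.16 and 1.10 against 5.66, 5.78 and 6.06. Ccl9 fell by 6.45, Il2 by 2.92 and Ifng by 2.06, whereas Ccl5 rose by 1.36 and Tnf was not called (-0.21 ± 0.33). Among 19 effector transcription factors 8 fell and 1 rose: Zeb2, Irf8 and Prdm1 (Blimp-1) fell by 4.90, 4.19 and 3.66. Tbx21 (T-bet) and Runx3, with -0.68 ± 0.32 and -0.06 ± 0.29, were not called.

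Of 24 receptor brakes 3 rose and 8 fell, beside 10.7% of all genes higher and 21.6% lower, so the rises lie near that share. The falls were 5 without spleen array 3 or tumor array 3, and quantile normalization gave 6 of each. The Sprouty genes Spry1 and Spry2 fell by 4.79 and 4.18 and the anergy ligase Rnf128 (GRAIL) by 4.62. Pag1, an adaptor that brings Csk to the membrane, rose by 2.12 ± 0.25. Their median of -0.25 became 0.09, 0.07 and 0.06 under quantile, loess and median scaling. Of 23 immediate early genes 5 rose and 1 fell, and quantile and loess scaling each called 14 higher. Median scaling called 10 higher, the fit without Ptpn2 tumor array 1 gave 11, and that without the 3 arrays of the series whose lowest value lies above -1.5 gave 9. Jun, Fosb and Ier2 rose by 1.63, 1.61 and 1.30, and Ier3 fell by 4.28. Fosb read 6.05, 5.93 and 5.91 against 4.58, 4.11 and 4.37.

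Metabolic and biosynthetic lists held falls and almost no rises. All 15 called cholesterol synthesis genes of 17 measured fell, with a median of -1.39. Idi1, which makes the isoprenoid building block, read 2.73, 2.58 and 2.58 against 5.83, 6.01 and 6.10. Of 21 glycolysis and hypoxia genes 17 fell and 0 rose, led by the lactate exporter Slc16a3 (-5.58), the hypoxia target Bnip3 (-3.38) and the enzyme Tpi1 (-3.05). Tpi1 read 3.47, 3.61 and 3.16 against 6.36, 6.54 and 6.49. Of 24 unfolded protein and amino acid stress genes 12 fell and 1 rose: Asns, asparagine synthetase, fell by 3.30 and Chac1 by 3.88, whereas Hspa5 (BiP) and Atf4 were not called (-0.00 ± 0.31 and 0.15 ± 0.50). Of 24 proteasome genes 14 fell, with Psmd1 lowest at -1.95 ± 0.25, and of 23 respiratory chain genes 8 fell, with Cycs (cytochrome c) at -1.45 ± 0.25. Neither list held a rise. The proteasome falls were 9 without tumor array 3. Psma1 differed by -1.31 on its chosen probe set and by 0.36 on the mean of its probe sets, and its call was lost without tumor array 3 (-1.10). Of 16 ribosomal protein genes limma called 0, with 0 at an unadjusted p under 0.05 and a median of 0.37. Loess called 13 of them higher and median scaling 6.

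Interferon genes were mixed. Of 21 type I interferon-stimulated genes 7 fell and 1 rose, beside 21.6% of all genes lower and 10.7% higher. Isg20 and Ifih1, the sensor MDA5, fell by 1.58 and 1.48. The median of -0.41 became 0.06 under quantile normalization, where 8 were called higher and 6 lower. Of 21 interferon gamma and MHC class I genes 8 fell and 1 rose. The falls were 4 without spleen array 3 or tumor array 3, 5 without any other 1 of the Arhgap5 arrays and 4 after median scaling, and quantile normalization called 5 in each direction. The chemokine gene Cxcl9 read -3.23, -2.45 and -3.34 against 2.41, 1.79 and 2.46, while the transcription factor Irf1 rose by 1.59 ± 0.40 and B2m was not called (0.32 ± 0.27).

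Markers of other cell types are given beside these lists, to be read against the 10.7% of all genes called higher and 21.6% called lower. Of 20 macrophage and monocyte markers 19 were lower under the tumor label, with array means of -1.56 to -1.12 against 2.24 to 3.17. Csf1r, the receptor that defines the lineage, read -3.32, -2.40 and -2.99 against 3.62, 2.50 and 3.08. MHC class II genes went with them: H2-Aa read -2.65, -1.76 and -2.54 against 5.05, 4.49 and 5.15, and 5 of 11 in that list were lower. Spleen array 2 was the lowest of its group for Csf1r, H2-Aa, Cd74 and Lyz2. B cell markers ran the opposite way, with 5 of 12 higher and array means of -0.34 to 0.01 against -1.34 to -1.17. Cd22 read 1.81, 1.96 and 1.88 against 0.29, 0.00 and 0.32, and Ms4a1 (CD20) was not called (1.19 ± 0.49). Of 11 neutrophil markers limma called 0, and 1 had an unadjusted p under 0.05. Sparc, a matrix protein that pigment cells also make, fell by 4.10, while the fibroblast gene Dcn rose by 1.98, with 2 of 13 stromal genes lower and 1 higher, shares near or below those of all genes. Of 11 erythroid and platelet genes 2 were lower, led by Pf4, platelet factor 4 (-5.65), also below the share of all genes, and 1 without spleen array 2, tumor array 1 or tumor array 3. Of 8 CD4 T and NK cell genes 4 were lower, among them Tnfrsf4 (OX40, -5.41) and Il2ra (-3.90), which activated CD8 T cells also express, and 1, Klra8, was higher (2.55). Without spleen array 2, spleen array 3 or tumor array 2, and after median scaling, 2 of the 8 were lower. The part of these other cells in the lists above was not tested.

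**Figure D2:**
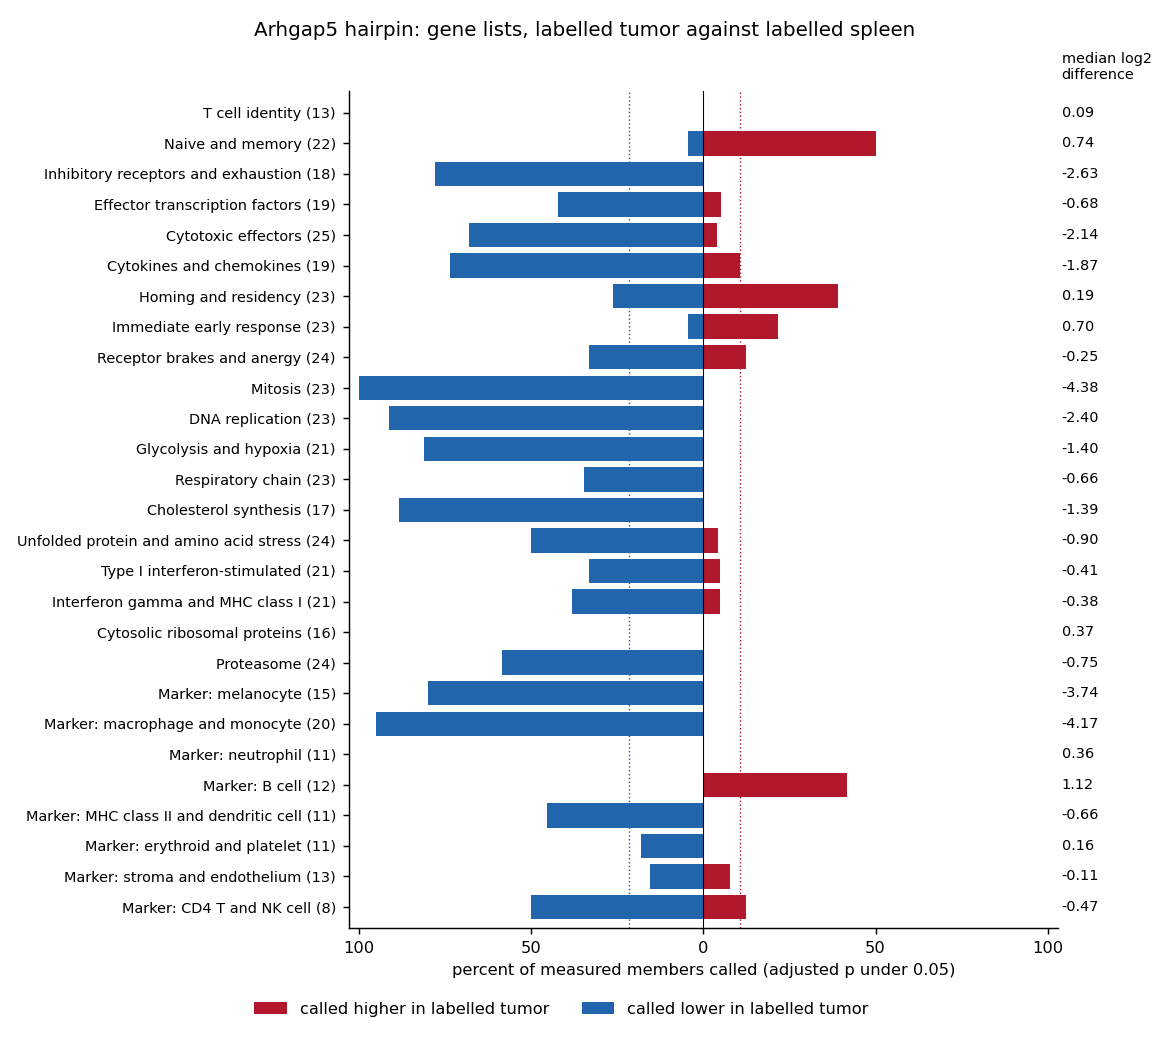
Percent of the measured members of each list (number in brackets) called higher, red to the right, or lower, blue to the left, in the Arhgap5 arrays labelled tumor at an adjusted p under 0.05. Dotted lines mark the share of all genes called in that direction (10.7% higher, 21.6% lower), and the numbers at the right are median log2 differences. Mitosis stands at 23 of 23 lower, while T cell identity and ribosomal proteins have no member called.

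Cell division genes fell as a whole. All 23 measured mitosis genes were called lower as deposited and under the quantile, loess and median scalings, with a median of -4.38. Of 23 DNA replication genes 21 fell, with a median of -2.40. Kif11, the kinesin that pushes spindle poles apart, read -1.83, -1.48 and -1.73 under the tumor label and 4.52, 4.79 and 4.69 under the spleen label. Bub1, a checkpoint kinase at kinetochores, read -2.60, -0.61 and -0.94 against 4.40, 4.77 and 4.50. Cdc45, part of the replicative helicase, read -0.67, -0.92 and -1.0 against 4.23, 4.76 and 4.41, and the thymidine kinase gene Tk1 0.40, 1.14 and 0.56 against 5.30, 5.59 and 5.50. Cdt1 and Pcna were the replication genes not called (-0.02 ± 0.32 and -0.59 ± 0.44). The smallest mitotic fall was that of Bub3, by 1.06.

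Promoters of mitosis genes are known for a CCAAT box, bound by the factor NF-Y, and for the cell cycle homology region, TTTGAA, bound by complexes that silence these genes in resting cells. The windows of 4 mitosis genes are shown because these genes fell together and were also called in the comparison with the other hairpins that follows. They reach from upstream of the start site to just past it (RefSeq, GRCm38.p6, 5′ to 3′ on the gene's strand), with CCAAT and TTTGAA on either strand in capitals. Kif11 lies at chr19:37376132-37376431 on the plus strand, Nusap1 at chr2:119618048-119618347 (plus), Bub1 at chr2:127831810-127832109 (minus) and Plk1 at chr7:122159185-122159484 (plus). Tpx2 is named only.
Kif11: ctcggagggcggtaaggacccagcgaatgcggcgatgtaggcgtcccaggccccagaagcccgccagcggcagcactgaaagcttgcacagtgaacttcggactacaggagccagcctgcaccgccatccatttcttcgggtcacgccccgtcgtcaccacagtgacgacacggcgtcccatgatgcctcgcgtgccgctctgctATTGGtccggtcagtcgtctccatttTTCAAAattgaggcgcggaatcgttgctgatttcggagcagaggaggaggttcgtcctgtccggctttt
Nusap1: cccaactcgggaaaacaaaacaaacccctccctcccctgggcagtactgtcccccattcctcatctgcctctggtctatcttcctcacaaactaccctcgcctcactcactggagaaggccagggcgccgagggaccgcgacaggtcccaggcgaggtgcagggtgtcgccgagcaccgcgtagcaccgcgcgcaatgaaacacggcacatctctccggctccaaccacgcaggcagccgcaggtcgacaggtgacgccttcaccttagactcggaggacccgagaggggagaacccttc
Bub1: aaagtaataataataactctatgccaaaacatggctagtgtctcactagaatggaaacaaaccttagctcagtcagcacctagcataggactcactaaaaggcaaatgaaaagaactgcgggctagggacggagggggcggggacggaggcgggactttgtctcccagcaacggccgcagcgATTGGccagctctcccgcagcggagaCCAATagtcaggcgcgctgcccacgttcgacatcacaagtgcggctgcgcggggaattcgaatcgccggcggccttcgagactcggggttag
Plk1: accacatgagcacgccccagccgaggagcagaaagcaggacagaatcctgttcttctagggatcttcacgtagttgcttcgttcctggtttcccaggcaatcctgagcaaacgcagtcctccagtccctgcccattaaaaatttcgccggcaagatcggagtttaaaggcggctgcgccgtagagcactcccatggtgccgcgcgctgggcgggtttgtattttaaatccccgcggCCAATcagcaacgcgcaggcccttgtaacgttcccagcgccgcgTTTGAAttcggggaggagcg
Kif11 and Plk1 held 1 match of each motif, Bub1 2 matches of CCAAT, and Nusap1 neither. Both motifs stood in 13 of the 19 mitosis windows found (68.4%), beside 5.37% of the 14452 windows of tested genes and 7.12% of all 27025 windows. TTTGAA was in 15 of 19 (78.9%) beside 13.3% of tested genes, and CCAAT also in 15 of 19 beside 38.2%. In the 19 DNA replication windows TTTGAA was in 15.8%, while an E2F-like motif, TTTNNCGC, was in 47.4% beside 7.28% of tested genes. A match describes the letters of a window and does not show that a factor was bound. In the windows shown, no match overlaps another.

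To ask where the Arhgap5 hairpin differed from the others, its label difference was set against the mean of the Ppp2r2d, Egr2, Ptpn2 and Alk differences, which share no arrays with it. This interaction was called higher for 3 genes (0.0165%) and lower for 41 (0.225%). The median over all genes was -0.14, and -0.01 after quantile normalization. Members of the mitosis list made up 5 of the 41: Kif11, Nusap1, Bub1, Tpx2 and Plk1. The median interaction over the 23 mitosis genes was -1.37, and all 23 were below 0, as were 12313 of all 18193 genes. The 11 erythroid and platelet markers and the 11 MHC class II markers were also all below 0, with medians of -0.81 and -0.64 and 0 called, and 15 of 20 macrophage markers were, with a median of -0.30. Their part in the mitosis values was not tested. For Kif11 it was -2.35 ± 0.39 (limma, adjusted p = 0.00278), for Plk1, the kinase of mitotic entry, -1.30 ± 0.26 (adjusted p = 0.0157). Nusap1 and Tpx2, which organise spindle microtubules, had -2.12 ± 0.47 and -1.76 ± 0.39 and Bub1 -1.87 ± 0.41, with adjusted p of 0.0373, 0.041 and 0.0355.

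The levels show which label carried this. In the arrays labelled spleen Kif11 read 4.52 to 4.79 with the Arhgap5 hairpin and 3.94 to 5.15 in the 12 arrays of the other hairpins. In those labelled tumor it read -1.83 to -1.48 against -1.12 to 2.16 (median 1.08), with no overlap. Among the latter the Alk arrays read -1.12, -0.78 and -0.25. The Kif11 label difference was -6.35 with the Arhgap5 hairpin, beside -5.18 for Alk, -4.45 for Egr2, -3.71 for Ppp2r2d and -2.65 for Ptpn2. Plk1 under the tumor label read -1.24 to -1.16 against -0.89 to 0.56, again without overlap, and its spleen-labelled arrays overlapped. The tumor-labelled Alk arrays lay nearest for Plk1, at -0.64, -0.89 and -0.38. Nusap1 under the tumor label read -1.16, 0.50 and 0.42 against 0.66 to 3.44, close to the lowest arrays, which were those of Alk. For Tpx2 and Bub1 the tumor-labelled ranges overlapped, Tpx2 with -1.31, -0.39 and -0.06 against -0.72 to 2.92. LacZ arrays labelled tumor read -0.20 to 1.49 for Kif11 and -0.20 to 0.14 for Plk1. Against LacZ, 6 mitosis genes were called lower, beside 0.824% of all genes. They were 3 without any 1 of the 6 Arhgap5 arrays and after median scaling, 11 after quantile normalization or loess, and 15 without the 3 arrays whose lowest value lies above -1.5.

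The number of mitosis genes called in this interaction moved with the settings while their median stayed between -1.15 and -1.49. It was 14 after quantile normalization and after loess, 2 after median scaling, and 1 to 4 with 1 of the Arhgap5 arrays left out (1 without spleen array 2, spleen array 3 or tumor array 1, 2 without spleen array 1 or tumor array 3, and 4 without tumor array 2). Without the 3 arrays whose lowest value lies above -1.5, it was 12. DNA replication genes had a median interaction of -0.44 with 0 of 23 called by limma, 4 lower at an unadjusted p under 0.05 and 2 called lower after quantile normalization. Over all genes, 818 were lower and 212 higher at that unadjusted p.

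**Figure D3:**
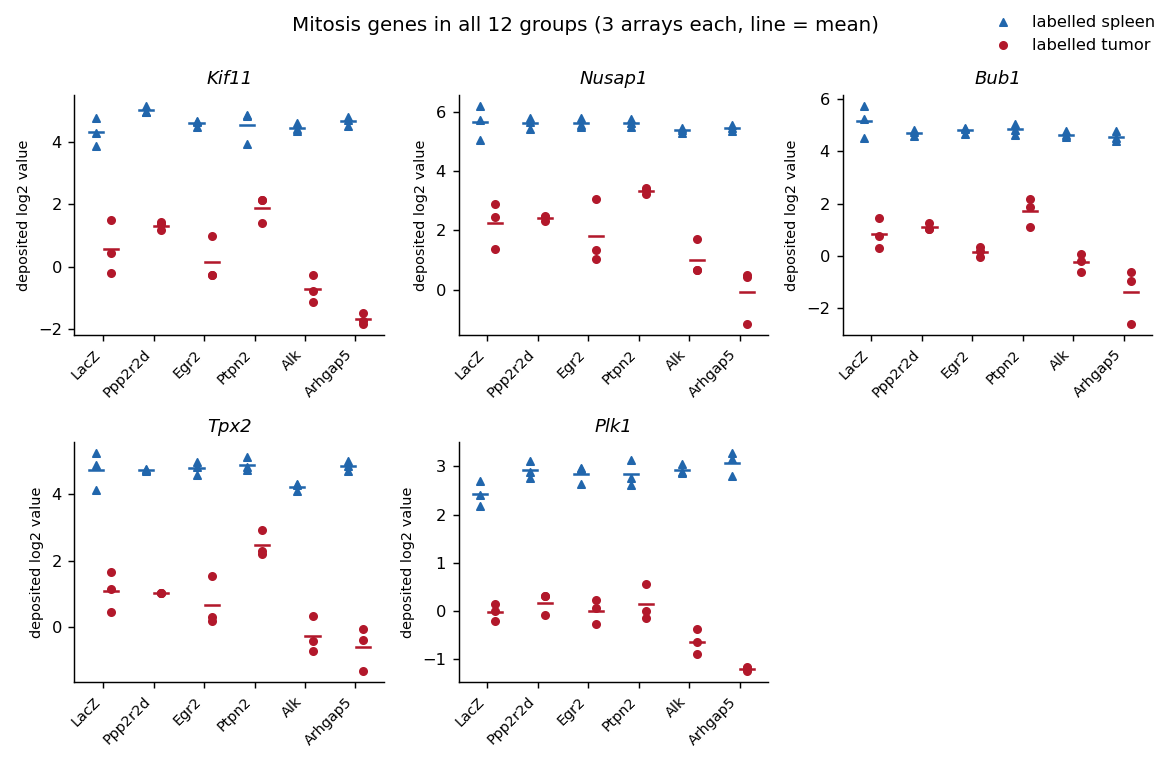
Deposited log2 value (y axis) of the mitosis genes called in the interaction, in all 36 arrays by transduction (x axis, 3 arrays for each label). Blue triangles are arrays labelled spleen, red circles those labelled tumor, and short lines are means. For Kif11 the tumor-labelled Arhgap5 arrays (-1.83 to -1.48) lie below all others, while the spleen-labelled ones (4.52 to 4.79) lie among the rest.

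The next 4 genes called in the interaction were highest in the Arhgap5 arrays labelled spleen. Khdc1a, a KH domain gene, read 2.44, 2.69 and 3.06 in the Arhgap5 arrays labelled spleen, above the -3.36 to 1.97 of the 4 other hairpins. Its interaction was -4.43 ± 0.54 (adjusted p = 3.09e-05). Il23a, the p19 subunit of interleukin-23, read 3.81, 3.92 and 4.41 against -1.90 to 2.73 under the spleen label. Under the tumor label it was low in all, at -2.88 to -1.76 against -2.96 to -0.73, and the interaction was -3.82 ± 0.49 (adjusted p = 5.55e-05). Slc6a12, a transporter of betaine and GABA, read 2.87, 3.02 and 3.28 against -2.81 to 1.36, with an interaction of -3.63 ± 0.56. Car5b, a mitochondrial carbonic anhydrase, read 2.37, 2.63 and 2.74 against 0.51 to 1.83, with -2.66 ± 0.31. Under the tumor label Car5b read -2.07 to -1.66, below the -1.56 to 1.77 of the other hairpins, so that both labels set it apart.

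Ifitm1, an interferon-induced membrane protein, was low in the Arhgap5 arrays labelled tumor, at -0.10, -0.28 and 0.36. The other hairpins read -0.09 to 5.37 there, so the ranges overlap, with 1 Ppp2r2d and 1 Alk array within that of Arhgap5. Its interaction was -3.12 ± 0.45 (adjusted p = 0.000378), with a Ptpn2 difference of 0.98 among the 4. The genes called higher were Il1r1, the interleukin-1 receptor, Insm2, a zinc finger gene, and Ina, a neurofilament gene. Il1r1 read 0.75, 0.37 and 0.42 under the tumor label and -2.66, -2.62 and -2.56 under the spleen label, with an interaction of 1.87 ± 0.37. The tumor-labelled arrays of the other hairpins read -1.29 to 0.20, all lower. For Insm2 the Alk arrays labelled tumor read 1.34, 0.60 and 0.61, above the -0.10, 0.13 and 0.03 of Arhgap5. Insm2 and Ina had 1.87 ± 0.40 and 2.58 ± 0.58, and both lie low in the range of the arrays. Their calls, and that of Il1r1, were lost on the mean of all probe sets (0.85 for Il1r1, 0.31 for Insm2, 1.53 for Ina), that of Insm2 also after quantile normalization (1.81). The Il1r1 call was lost without Arhgap5 spleen array 1, 2 or 3 (1.85, 1.87 and 1.90) or tumor array 1 or 3 (1.76 and 1.92), and that of Insm2 without any 1 of the 6 (1.81 to 1.93). The Ina call was lost in 20 of 40 settings, with values of 1.53 to 2.71 in them, and without Arhgap5 spleen array 3 it was 2.15.

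Xist, the RNA that coats the inactive X chromosome, had an interaction of -3.23 ± 0.61 (adjusted p = 0.0103). It read 1.12, -0.16 and -0.39 in the Arhgap5 arrays labelled tumor and 3.93, 3.41 and 4.35 in those labelled spleen. In the LacZ, Ppp2r2d, Egr2 and Alk arrays it read 5.98 to 7.46 under either label. The call was lost without Arhgap5 spleen array 3 (-3.01) or tumor array 3 (-2.94). The Y-linked genes Eif2s3y, Kdm5d and Uty, chosen after Xist was seen, ran the other way. Eif2s3y read 5.45 to 5.54 in the Arhgap5 arrays labelled spleen and 5.51 to 5.69 in those labelled tumor, against -3.54 to -1.13 in the LacZ, Ppp2r2d, Egr2 and Alk arrays. Ptpn2 arrays were like those of Arhgap5, with Eif2s3y at 5.23 to 5.88 and Xist at 3.17 to 3.80 and -1.05 to 3.20. The Arhgap5 and Ptpn2 transductions thus differ from the other 4 in sex-linked RNA as well as in hairpin, and these cannot be told apart in comparisons with LacZ. The contrast with the other hairpins carries the same limit, since Ppp2r2d, Egr2 and Alk differ from Arhgap5 in this way and only Ptpn2 does not. The part of the sex-linked difference in the autosomal differences was not tested.

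**Figure D4:**
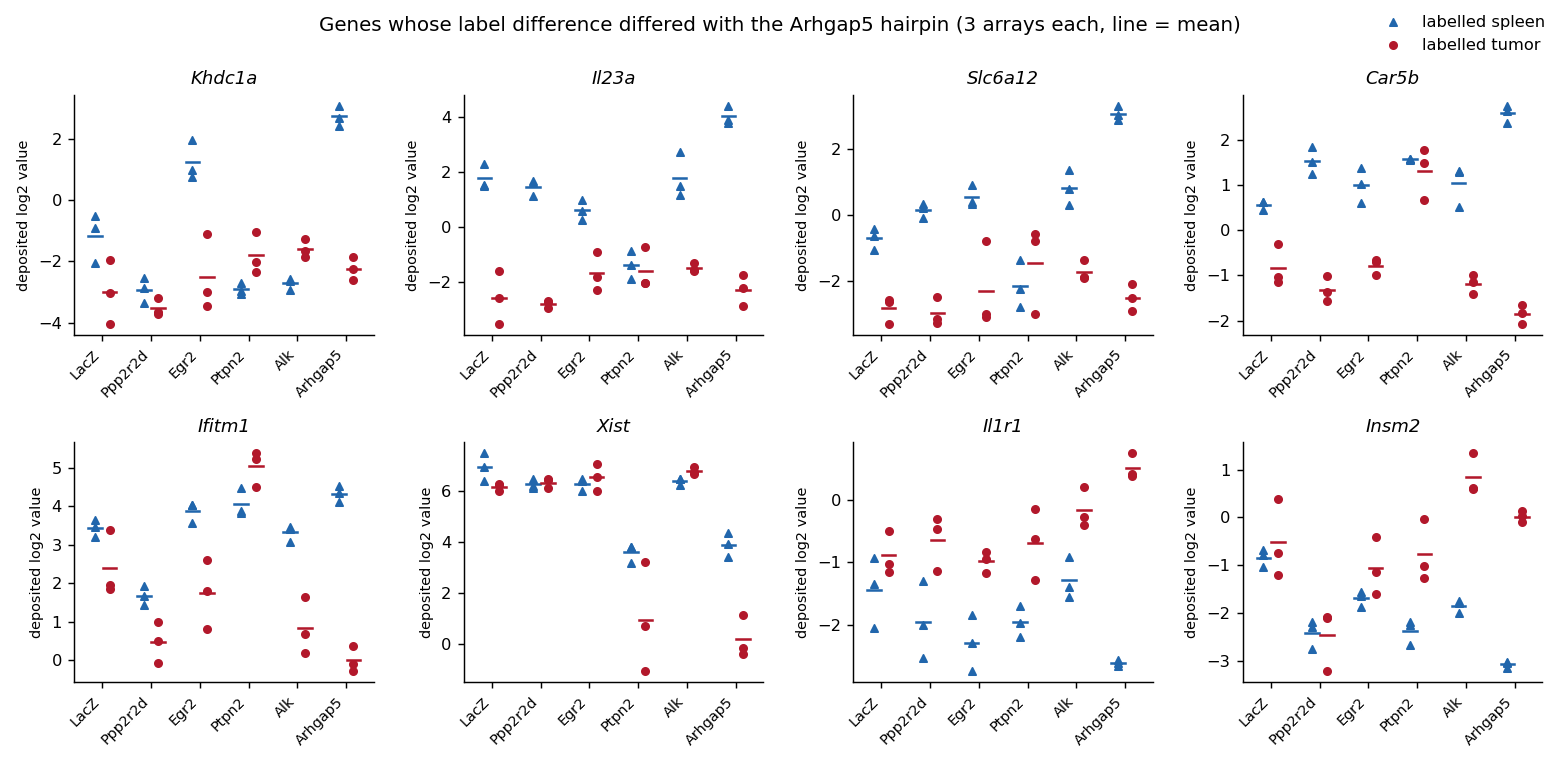
Deposited log2 value (y axis) of 8 genes called in the interaction between the Arhgap5 hairpin and the 4 other hairpins, by transduction (x axis, 3 arrays for each label, short lines are means). Blue triangles are arrays labelled spleen and red circles those labelled tumor. Khdc1a, Il23a, Slc6a12 and Car5b are highest in the spleen-labelled Arhgap5 arrays, and Xist is lower in the Arhgap5 and Ptpn2 arrays than in the rest.

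Against the LacZ control, the label difference of the Arhgap5 hairpin was called higher for 363 genes (2.00%) and lower for 150 (0.824%). The median over all genes was 0.21. Quantile normalization gave 197 and 246, loess 227 and 242, and median scaling 790 and 86. Slc6a12 had -3.45 ± 0.71 (adjusted p = 0.0124), Ifitm1 -3.29 ± 0.56, Khdc1a -3.11 ± 0.69 and Tnfaip2, a gene induced by tumor necrosis factor, -3.05 ± 0.84 (adjusted p = 0.0435). Tnfaip2 read -2.37, -2.12 and -2.45 in the Arhgap5 arrays labelled tumor and -0.79 to 0.95 in those of LacZ. The largest positive values among called genes, predicted genes and clones left out, were those of Hoxc8, a homeobox factor (5.86 ± 1.12), Tenm2, a teneurin (4.90 ± 1.19), Marveld3, a tight junction protein (4.40 ± 1.20), and Ntrk3, a neurotrophin receptor (4.36 ± 1.22). All 4 are low on these arrays, and the LacZ arrays labelled tumor were far apart for them, Hoxc8 at -3.02 to 1.53. The mean of the LacZ arrays labelled spleen was 0.84 for Hoxc8 and -0.53 for Marveld3. The 4 other hairpins gave -1.99 and -3.16 there. The Hoxc8 label difference was -0.63, 0.44, 2.73 and 3.28 with the Ppp2r2d, Egr2, Ptpn2 and Alk hairpins, beside 4.08 with Arhgap5. For Tenm2, tumor-labelled arrays of those hairpins spanned -3.36 to 2.01, the highest from Alk, and Arhgap5 arrays 0.05 to 0.92. Hoxc8, Tenm2, Marveld3 and Ntrk3 were not called higher against the other hairpins. Without LacZ tumor array 1 the interaction with LacZ was 3.74 for Tenm2, 3.22 for Marveld3 and 3.17 for Ntrk3. None of these was called, and Tnfaip2 was not called either (-3.00). Of 23 settings, Tenm2 lost its call in 8, Marveld3 and Ntrk3 in 15, and Tnfaip2 in 16. Khdc1a lost it without Arhgap5 spleen array 3 (-2.94) or tumor array 3 (-2.92). The count of called genes changed with single arrays. Leaving out a LacZ array labelled tumor gave 47 without array 1, 2001 without array 2 and 132 without array 3. For the LacZ arrays labelled spleen it was 713 without array 1, 252 without array 2 and 666 without array 3. Without LacZ spleen array 2, whose lowest value was -1.45, 127 genes were called higher and 125 lower. The median over all genes was then -0.01, beside 0.22 without array 1 and 0.41 without array 3. Leaving out an Arhgap5 array gave 268 without spleen array 1, 107 without spleen array 2 and 68 without spleen array 3. It gave 539 without Arhgap5 tumor array 1, 92 without tumor array 2 and 124 without tumor array 3.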

How the data were processed

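Affymetrix 3' arrays with 1 channel measured the RNA of 36 samples, 3 in each of 12 groups defined by the labels. Their range shows that the deposited values are log2 signals. Per the submitters' processing notes the authors used RMA, which corrects background and summarises probe sets. The sources used here give neither its version nor the centring between arrays, so levels are not read as amounts. Of 45101 probe sets, 34945 had 1 gene symbol, 932 had several, 9160 had none in the annotation given and 64 were controls. Each of 18193 genes was represented by its probe set with the highest mean over all arrays, and 9010 genes had several. The number of arrays limits the precision.

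The fit used limma 3.58.1 under R 4.3.3, with the tables read by its package data.table (version 1.17.8). It had 1 coefficient per group over 36 arrays (24 residual and 6.75 prior degrees of freedom) in lmFit, followed by eBayes. A gene was called where its two-sided p, adjusted by Benjamini and Hochberg's method across the 18193 genes of a contrast, was under 0.05. The 3 contrasts were the Arhgap5 label difference, and that difference minus the mean of the 4 other hairpins or minus LacZ. The 31 gene lists (596 of 652 genes measured) are described by counts and medians. Of these, 4 lists are not reported here. Members, lists and tests were chosen with earlier results of these data known.

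Named are the 12 called genes with the largest rise and fall among those whose arrays do not overlap, up to 6 and 6 for the contrast with the other hairpins and 4 and 4 for that with LacZ, up to 4 called members of each list and the 5 targets. Predicted genes and clones were skipped. Further list members are given as examples, chosen after their values were seen. Of 140 named genes 81 had other probe sets, 14 had 1 or more of opposite sign and 0 a called one of opposite sign. Promoter windows come from RefSeq tables of GRCm38.p6. Figures were drawn with matplotlib 3.10.9. The fit was tested on simulated data. No pairing by replicate number was seen: the correlation of residuals of same-numbered arrays lay between -0.24 and 0.24 over 18 pairs. With 3 arrays a group this cannot show whether same-numbered arrays came from the same animals. Alternatives were averaging a gene's probe sets, filtering low values (3 or more arrays over the 40th percentile), quantile, loess or median scaling, fitting fewer arrays, weighting arrays, blocking on replicate number, a variance trend, a minimum difference of 1, other probe sets of the target and leaving out arrays. The fit without the 3 arrays whose lowest value lies above -1.5 was added after seeing the data.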

Additional observations from a re-analysis of the deposited data

Results flagged for a closer look

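The label difference of the Arhgap5 hairpin differed from the mean of the Ppp2r2d, Egr2, Ptpn2 and Alk hairpins by the interaction test for genes given above. Of those chosen by size, it was lower for Khdc1a (-4.43), Il23a (-3.82), Slc6a12 (-3.63), Xist (-3.23), Ifitm1 (-3.12) and Car5b (-2.66), and higher for Ina (2.58), Il1r1 (1.87) and Insm2 (1.87). Of the mitosis list, it was lower for Kif11 (-2.35), Nusap1 (-2.12), Bub1 (-1.87), Tpx2 (-1.76) and Plk1 (-1.30). All 3 Arhgap5 arrays labelled spleen lay above all other arrays labelled spleen for Khdc1a, Il23a, Slc6a12 and Car5b.

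Against LacZ, the genes chosen by size among those called were Hoxc8 (5.86), Tenm2 (4.90), Marveld3 (4.40) and Ntrk3 (4.36), and Slc6a12 (-3.45), Ifitm1 (-3.29), Khdc1a (-3.11) and Tnfaip2 (-3.05). Both contrasts share the Arhgap5 arrays.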

How the results depend on the processing

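Of 137 named genes called between the labels, the target Arhgap5 left aside, 136 kept their direction under every setting tried and 128 their call. The exception in direction was Psma1 (0.36 on the mean of its probe sets), and among genes not called Ptpn2 turned to -0.34 there and Ppp2r2d to 0.15 under quantile normalization and 0.043 under loess. The count of genes called between the labels, 5878, became 9620 with fewer arrays in the fit and 10638 with array weights, and 4440 to 6427 with 1 array left out. The 44 genes of the contrast with the other hairpins became 67 with the filter, 174 with quantile normalization, 168 with loess, 71 with fewer arrays, 239 with array weights and 68 with a variance trend. They became 109 without the 3 arrays whose lowest value lies above -1.5, and 12 to 66 with 1 array left out, 12 being without Arhgap5 spleen array 3. The lower counts came without Arhgap5 spleen array 1 (22) or 2 (16) and tumor array 1 (17) or 3 (18), and Arhgap5 tumor array 2 was not among them. The 513 genes of the contrast with LacZ became 876 after subtracting array medians, 55 with fewer arrays, 2786 with array weights, 840 without those 3 arrays and 47 to 2001 with 1 array left out. The target Arhgap5 gave 0.43 and 0.80 on the probe sets on which it was not called, and 0.82 to 1.34 with 1 array left out. It lost its call in 6 of 20 settings, the other probe sets included. With the replicate block, the counts were 5749, 42 and 396 for the 3 contrasts, though no pairing by replicate number was seen. Ina, Marveld3, Ntrk3 and Tnfaip2 lost their calls under the block (2.58, 4.40, 4.36 and -3.05). The cause of these moves was not tested. Low signals limit the genes near the bottom of the range, where the lowest value differed between arrays.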
